A study of Mus musculus with 17 samples.

Results

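The effect of a high-fat diet (HFD) on the liver transcriptome under ethanol was read from 9 of the 17 mice of the series: 5 HFD-fed mice given 1 binge of ethanol (HFD+1B) and 4 chow-fed mice given the same binge (1B). The samples were chosen by title alone, and every non-control probe of the array was considered. All were male, of the strain that the labels give as C57BL/6N and the methods as C57BL/6J, and their age at the start is not given in the sources used here. Feeding lasted 3 months, with 60% of calories as fat in the HFD, and ethanol was given by gavage at 5 g/kg, with livers taken 9 hours later. The remaining 8 mice, 4 fed chow (chow) and 4 fed HFD (HFD), received maltose in place of ethanol and served here to ask whether the diet effect differed without ethanol. A single time point after the gavage was studied, and no liver was taken before it.

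The liver stores excess dietary fat as triglyceride in lipid droplets, and the nuclear receptor PPAR-alpha turns on genes of fatty acid oxidation when fatty acids reach the hepatocyte. A fatty liver exposed to ethanol can progress to steatohepatitis, in which macrophages and neutrophils enter the tissue and hepatic stellate cells deposit collagen. Ethanol is itself oxidized by hepatocytes, and secretory proteins such as albumin, complement, and clotting factors are folded in their endoplasmic reticulum (ER) with the help of chaperones.

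Liver cDNA of each mouse, labeled with Cy5, was hybridized with a Cy3-labeled common reference RNA on 1 Agilent array, so each value is a log2 ratio of liver to reference. Of 41174 non-control probes, 34650 were tested, and they stood for 19351 genes with the brightest probe of each gene used. Cy5 signals were well above background for 75.1% to 80.9% of spots in 1B livers and 78.2% to 85.9% in HFD+1B livers, with 0 saturated spots. All 13 hepatocyte markers tested, Alb among them, were well above background on all 9 arrays. The arrays lay on 5 slides, and 4 slides held an array of each ethanol group, which gave 4 differences within a slide. The number of arrays limits the precision, and no label says whether mice shared a cage or a day of gavage. Ribosomal RNA probes, averaged per mouse, lay between -1.16 and 0.12 in 1B livers and between -1.03 and 1.12 in HFD+1B livers, but between -3.81 and -2.15 in HFD livers, so this quantity overlapped under ethanol and stood apart under maltose.

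Under ethanol, 1216 genes (6.28% of those tested) passed the limma test as higher in HFD+1B livers and 996 (5.15%) as lower, with the 1B livers as the base and a Benjamini-Hochberg adjusted p of at most 0.05. With a change of at least 2-fold added, 227 genes (1.17%) were higher and 131 (0.677%) lower. The values of the 5 HFD+1B mice all lay above those of the 1B mice for 1100 genes (5.68%) and all below for 1121 (5.79%). Within slides, the 4 differences had the sign of the fit for 93.6% of the 1173 genes higher that could be read on all 4 slides, for 96.8% of 955 genes lower, and for 29.4% of all 18717 genes. These differences come from the arrays by which the genes were called. A high share among called genes therefore follows from the selection and is no separate support. When 1B replicate 3 was left out, the count of probes higher went from 1838 (5.3% of 34650, with 4.7% lower) to 1191, and with Cy5 signals alone it was 495. The fit of the 9 ethanol arrays alone called 858 genes higher and 759 lower and kept 69.5% of the genes called here. Cy5 signals alone kept 24.6% of them. Centring each array on its median in place of loess gave 75.6% of called genes as higher, against 55% here, with a median shift over all genes of 0.036.

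**Figure D1:**
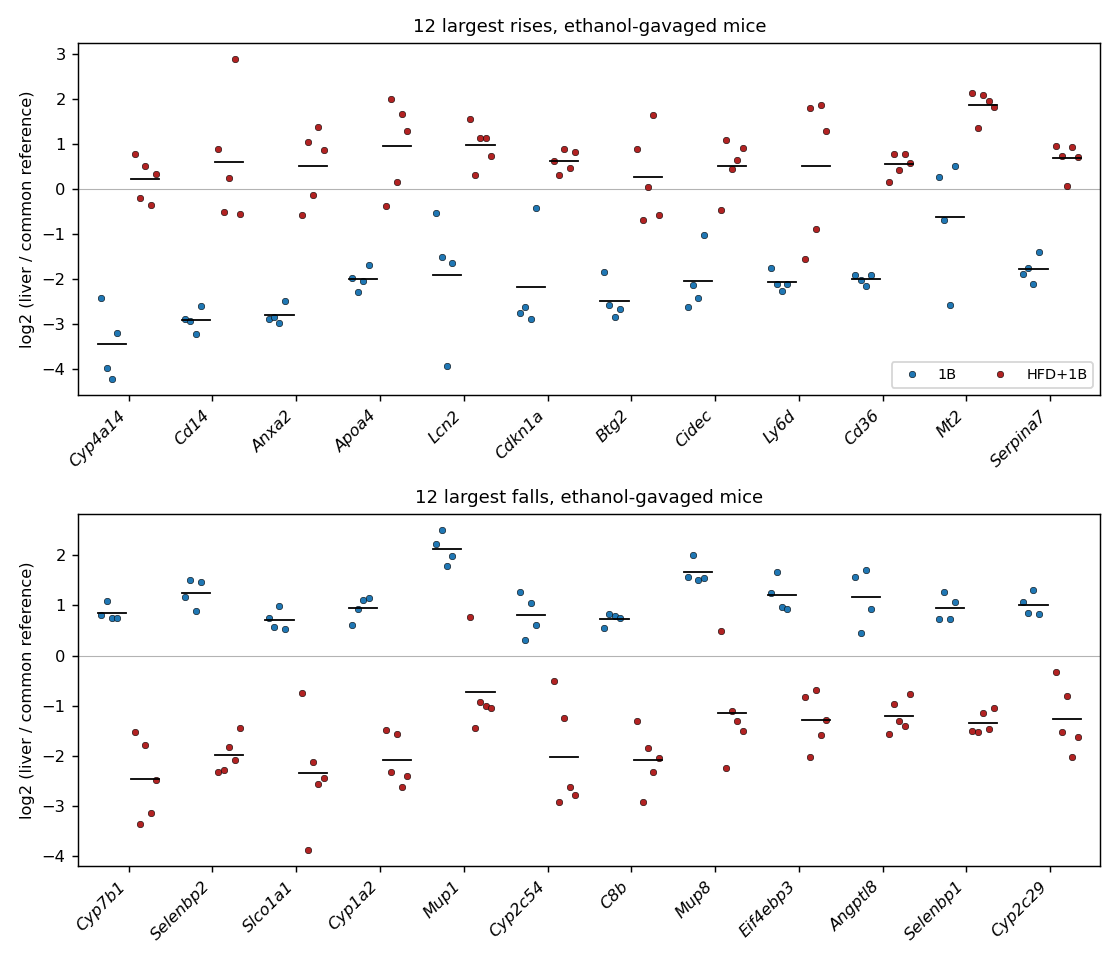
Log2 ratio of liver to common reference (y axis) for the 12 genes with the largest rises (top) and the 12 with the largest falls (bottom) in HFD+1B against 1B livers. Each point is 1 mouse (4 1B, 5 HFD+1B), and each bar is the group mean. Every HFD+1B point lies on the far side of every 1B point for all 24 genes, and Ly6d comes closest to overlapping, at -1.76 in 1 1B liver and -1.56 in 1 HFD+1B liver.

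Lipid storage genes and the PPAR-alpha target Cyp4a14 were among the largest rises. Of 27 genes tested on a list for steatosis and lipid droplets, 12 were higher and 0 lower (6.28% and 5.15% of all genes), with a list median of 0.47 on the log2 scale against -0.0081 over all genes. Every list count below is to be set against these shares over all genes. Cidec, a lipid droplet protein that enlarges droplets, was at -2.63, -2.15, -2.43, and -1.03 in the 4 1B livers and at -0.48, 1.09, 0.44, 0.64, and 0.91 in the 5 HFD+1B livers. No values overlapped, and the difference was 2.58 ± 0.43 (SE), or 5.98-fold (adjusted p = 0.00093, limma). Cd36, a fatty acid transporter, was between -2.17 and -1.91 in 1B livers and between 0.16 and 0.78 in HFD+1B livers, 5.87-fold higher (adjusted p = 1.14e-05). Cidea, a relative of Cidec, was 4.91-fold higher (adjusted p = 9.01e-06). Under maltose the log2 differences between HFD and chow livers were 3.44 for Cidec, 1.80 for Cd36, and 2.12 for Cidea, and for none of the 3 did the difference between the diet effects pass the test (adjusted p = 0.4882, 0.2942, and 0.8236, limma).

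Cyp4a14, a fatty acid omega-hydroxylase and a target of PPAR-alpha, had the largest rise among genes well above background with a value on all 9 ethanol arrays. Its log2 ratios were -2.42, -3.99, -4.24, and -3.20 in 1B livers and 0.78, -0.20, 0.51, -0.37, and 0.32 in HFD+1B livers. The groups were separated by more than 2 log2 units, or 12.7-fold in the means (3.67 ± 0.51, adjusted p = 0.000215, limma). Under maltose the chow livers themselves were split, at -1.96, -1.98, 0.52, and 0.32, and the diet difference there was 1.31 (adjusted p = 0.1345). Of 32 PPAR-alpha targets tested, 12 were higher and 0 lower, with a median of 0.41, and Vnn1, a pantetheinase, was 3.99-fold higher (adjusted p = 0.000607), with a value on 7 of the 9 arrays. Ucp2, a mitochondrial carrier, was 3.27-fold higher, although 1 of its 3 probes was at 0.01. Against the chow mean, the median of this list stood at -0.56 for 1B livers, 0.36 for HFD livers, and -0.046 for HFD+1B livers. The chow mice were split for this list as for Cyp4a14, at -0.27, -0.31, 0.27, and 0.23, the 1B mice lay between -0.64 and -0.27, and the HFD+1B mice lay between -0.12 and 0.042, so the 1B and chow ranges overlapped and every HFD+1B mouse lay between the pairs of chow mice.

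Genes that build new fatty acids moved in opposite directions. On a list of 23 lipogenic genes, 5 were higher and 6 lower (8 higher without HFD+1B replicate 1). The diet effect differed between ethanol and maltose for 5 of the 23, against 2.68% more positive and 1.72% more negative over all genes. Elovl6, a fatty acid elongase, was at 1.17, 1.75, and 0.82 in the 3 1B livers with a value and at -1.12, -0.24, -0.85, -0.43, and -0.27 in HFD+1B livers, 3.54-fold lower (adjusted p = 0.000111, limma). Angptl8, a secreted inhibitor of lipoprotein lipase activity, was 5.18-fold lower (-2.37 ± 0.31, adjusted p = 0.000112). In chow livers Elovl6 lay between -1.45 and -0.73 and Angptl8 between -1.51 and 0.00, so the high values were those of the 1B group. The list of 26 genes for cholesterol synthesis and uptake had 3 higher and 1 lower. Apoa4, an apolipoprotein of fat absorption and hepatic lipid secretion, was 7.78-fold higher (adjusted p = 0.000181), with values between -2.30 and -1.70 in 1B livers and between -0.37 and 2.00 in HFD+1B livers.

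**Figure D2:**
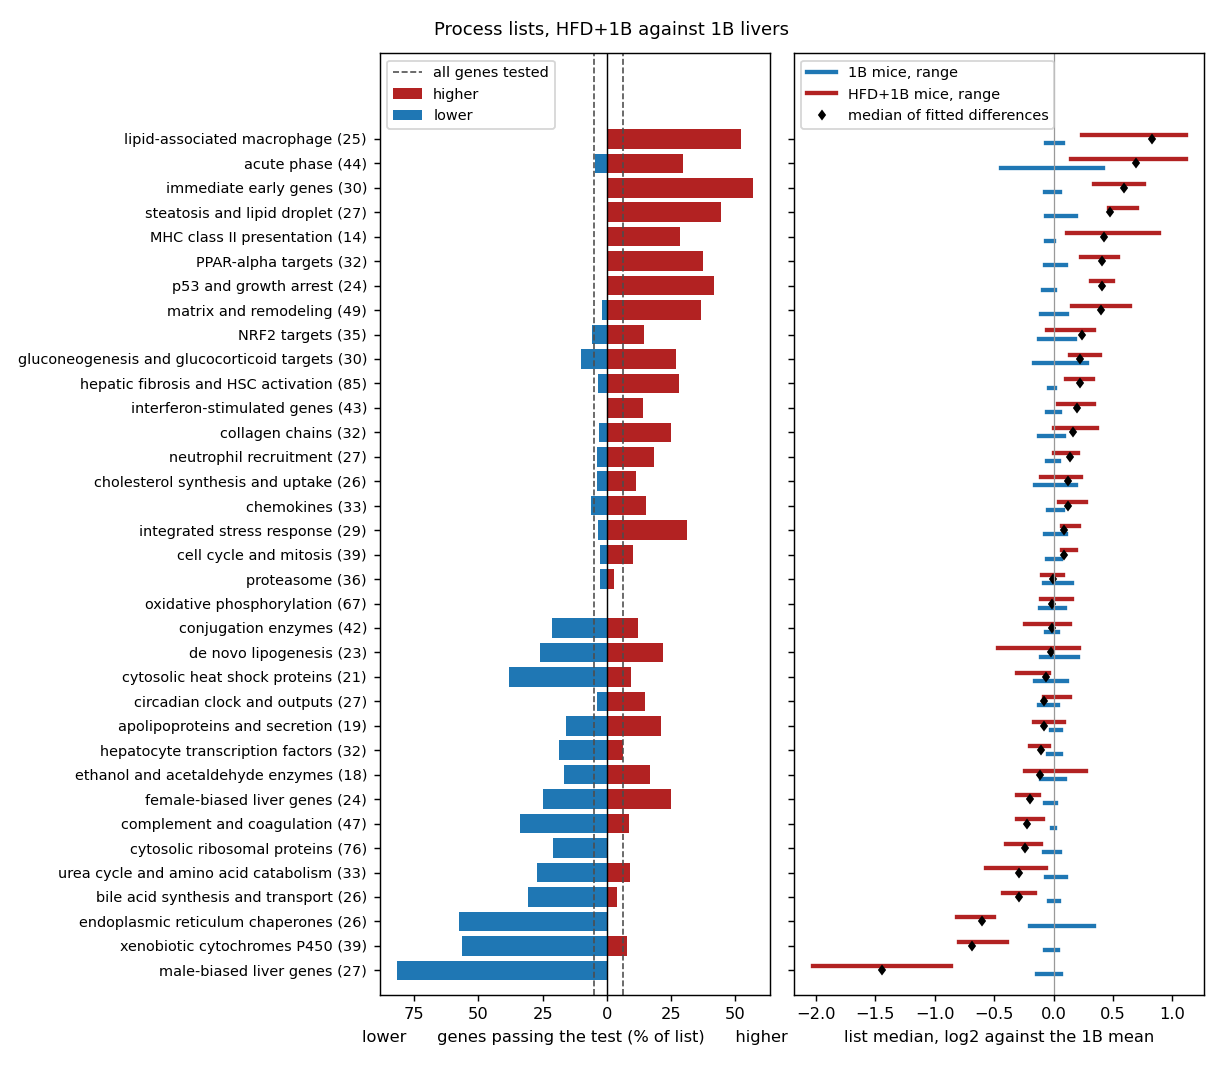
Each row is a list of genes of 1 process, with the number tested in parentheses. Left, percent of the list higher (red, to the right) or lower (blue, to the left) in HFD+1B livers, 1B livers being the base, by limma with an adjusted p of at most 0.05, with dashed lines at the share among all 19351 genes (6.28% and 5.15%). Right, range of the list median over 1B mice and over HFD+1B mice as log2 against the 1B mean, with the median of the fitted differences as a diamond. Male-biased liver genes lie lowest, at -1.44, and the lipid-associated macrophage list highest, at 0.83.

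Genes on a list for lipid-associated macrophages were higher as a group. Of the 25 tested, 13 were higher and 0 lower, all 25 differences were positive, and the median was 0.83. Anxa2, a membrane-binding annexin, was at -2.91, -2.85, -2.98, and -2.50 in 1B livers and at -0.58, 1.04, -0.14, 1.38, and 0.85 in HFD+1B livers. That is 9.97-fold (3.32 ± 0.31, adjusted p = 4.23e-06, limma), and the second probe gave 2.71. Cd63, a lysosomal tetraspanin, was 4.57-fold higher (adjusted p = 0.000152), with every HFD+1B liver at 0.14 or more and every 1B liver at -0.80 or less. Anxa5, another annexin, was between -1.62 and -1.37 in 1B livers and between -0.55 and 1.33 in HFD+1B livers, 4.54-fold higher (adjusted p = 0.000145). Cd68, a lysosomal protein of macrophages, was 2.89-fold higher (adjusted p = 0.000109). Of 20 general macrophage and Kupffer cell markers 4 were higher and 0 lower, with a list median of 0.28. This count was 2 without 1B replicate 1, 2, or 3 or HFD+1B replicate 2 or 4, and 8 without HFD+1B replicate 1. The medians of the marker lists for other cells were 0.022 for B cells, 0.022 for T and natural killer cells, 0.034 for cholangiocytes, 0.15 for erythroid cells, -0.023 for adipocytes, -0.056 for pancreatic acinar cells, and -0.105 for sinusoidal endothelium. In bulk liver, more cells of a type cannot be told apart from more RNA per cell, and annexins are made by many cell types.

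Matrix genes rose, with collagen I at the top. Of 49 matrix and remodeling genes tested, 18 were higher and 1 lower, with a median of 0.40, and of 32 collagen chains 8 were higher and 1 lower. On the broader list for hepatic fibrosis and stellate cell activation, 24 of 85 genes were higher and 3 lower. The count of collagens higher was 5 without 1B replicate 1 or 3, and that of the broader list 15 without HFD+1B replicate 4. Col1a1, a chain of the main scar collagen, was at -2.79, -2.15, -2.31, and -2.14 in 1B livers and at -1.76, 0.38, -0.25, and 1.20 in the 4 HFD+1B livers with a value. It was 4.74-fold higher (2.24 ± 0.43, adjusted p = 0.0031, limma), and all 3 of its probes passed. Col1a2 was at -2.01, -1.01, -1.03, and -1.68 against -0.64, 0.48, -0.12, 1.56, and 1.25, or 3.83-fold higher (adjusted p = 0.0017). HFD+1B replicate 1 was the lowest HFD+1B mouse for both chains and lay close to the 1B mice. Col3a1 (2.26-fold) and Col4a1 (1.65-fold) were also higher, although 1 of the 3 Col3a1 probes was at -0.03. Spp1, or osteopontin, a secreted matrix protein, was 4.15-fold higher, the basement membrane protein Nid1 3.27-fold, and the collagen-binding protein Sparc 2.44-fold.

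Weaker calls were made for Acta2 and Tgfb1. Acta2, the smooth muscle actin by which activated stellate cells are recognized, was at 0.67, 0.13, 0.12, and 0.26 in 1B livers and at 0.99, 0.85, 0.45, 0.97, and 0.67 in HFD+1B livers. These values overlapped, and the difference was 1.4-fold (0.49 ± 0.15, adjusted p = 0.0459, limma), on 1 of 4 probes. The call was lost on leaving out chow replicate 3 or 4, 1B replicate 2, 3, or 4, HFD replicate 2 or 3, or HFD+1B replicate 1, 2, 4, or 5, with adjusted p values between 0.0504 and 0.139, and in the fit of the 9 ethanol arrays alone (adjusted p = 0.0691). Tgfb1, the profibrotic cytokine, was 1.47-fold higher (adjusted p = 0.0403) and the call was lost without chow replicate 3 or 4, 1B replicate 1, 2, or 3, or HFD+1B replicate 2, 4, or 5, with adjusted p values up to 0.121. The Tgfb1 call was also lost in the fit of the 9 ethanol arrays alone (adjusted p = 0.0877, limma) and with no filter on dim probes (adjusted p = 0.0511). The deposited log2 ratios (adjusted p = 0.0775) and Cy5 alone (adjusted p = 0.403) did not give it either. Of the other collagen chains the study followed, Col5a2 was at a log2 difference of 0.21 (adjusted p = 0.3261) and Col12a1 at 0.18 (adjusted p = 0.4905). Des, an intermediate filament protein of stellate cells, was at 0.28 (adjusted p = 0.0636), with a pass on leaving out 1B replicate 1 (adjusted p = 0.0216) or HFD+1B replicate 2 (adjusted p = 0.042). Of 15 markers of quiescent stellate cells 2 were higher and 0 lower, with a list median of 0.28 and medians per HFD+1B mouse between -0.070 and 0.61. Without HFD+1B replicate 1 that count was 6, and without chow replicate 2 or 4, 1B replicate 2 or 3, or HFD+1B replicate 4 or 5 it was 1.

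The median of the neutrophil marker list changed little, and a few members rose. Of 29 neutrophil markers tested, 4 were higher (13.8%, against 6.28% of all genes) and 0 lower (against 5.15%). The median of the list was 0.091, and Ly6g has no probe of that name. The list median was -0.011 without 1B replicate 4, 0.007 without HFD+1B replicate 1, and 0.19 without 1B replicate 2, and the count higher was 2 without 1B replicate 3. S100a8, a calcium-binding protein that fills neutrophil cytoplasm, was at -0.57, -0.81, -0.66, and -0.35 in 1B livers and at 0.60, 0.45, 0.26, 0.36, and 0.33 in HFD+1B livers. The groups were well apart, at 2-fold (1.00 ± 0.10, adjusted p = 1.01e-05, limma). Cxcl1, the chemokine that draws neutrophils, was at -0.29, 0.12, -1.04, and -1.02 in 1B livers and at 1.90, 0.17, 1.78, 1.51, and 0.18 in HFD+1B livers. It was 3.17-fold higher (1.67 ± 0.39, adjusted p = 0.0107), with HFD+1B replicates 2 and 5 just above the highest 1B liver. Ccl6, a chemokine of myeloid cells, was 2.44-fold higher (adjusted p = 0.0011). A list for neutrophil recruitment, to which Cxcl1 belongs, had 5 of 27 genes higher (18.5%) and 1 lower (3.7%), with a median of 0.14. Its median under maltose was -0.017. Without 1B replicate 3 the count higher on this list was 3. The medians per mouse lay between -0.056 and 0.042 in 1B livers and between 0.004 and 0.20 in HFD+1B livers, so they overlapped. The other genes by which the study followed neutrophils and their signals did not pass: Mpo and Ncf1, parts of the oxidative burst, were at log2 differences of -0.053 and -0.12, the receptor Cxcr2 at -0.25 with 2 1B values, and the adhesion molecule Icam1 at 0.23. The cytokines Csf2 (0.089), Il15 (0.17), Il3 (-0.027), and Il17f (-0.12) and the growth factors Hgf (0.070) and Egf (-0.12) did not pass either, as read from the brightest probe. Of the other 3 Hgf probes, 1 passed as higher (0.42, adjusted p = 0.0496, limma). Csf3 and Il17a were not tested for lack of signal.

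Acute phase genes varied widely between mice. Of 44 tested, 13 were higher and 2 lower, with a median of 0.69, and the median per mouse ran from -0.44 to 0.42 in 1B livers and from 0.15 to 1.11 in HFD+1B livers, so the ranges overlapped. Cd14, the lipopolysaccharide co-receptor, went from values of -2.90, -2.93, -3.24, and -2.61 to values of 0.89, -0.52, 0.24, 2.90, and -0.57, or 11.4-fold (3.51 ± 0.47, adjusted p = 0.000161, limma). HFD+1B replicate 4 was the highest of these mice by 2 log2 units. Lcn2, an iron-trapping protein of hepatocytes and neutrophils, was at -0.53, -1.53, -3.94, and -1.64 in 1B livers and between 0.32 and 1.55 in HFD+1B livers (7.38-fold, adjusted p = 0.0157). Without 1B replicate 3 the Lcn2 difference was 2.21 and its adjusted p 0.0674. Mt2, a metallothionein, was 5.67-fold higher (adjusted p = 0.0082), and its adjusted p was 0.127 in Cy5 signals alone.

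Immediate early transcription factors and growth arrest genes were higher in HFD+1B livers. Of 30 immediate early genes tested 17 were higher and 0 lower, with a median of 0.60, and of 24 p53 and growth arrest genes 10 were higher and 0 lower, with a median of 0.41. The lists share members. Btg2, an antiproliferative gene on both lists, was at -1.86, -2.58, -2.86, and -2.68 in 1B livers and at 0.90, -0.70, 0.05, 1.64, and -0.58 in HFD+1B livers, 6.76-fold higher (adjusted p = 0.000207, limma). Its 3 probes agreed, at 2.42 to 3.02. Klf6, a zinc finger factor first studied in stellate cells, was between -1.85 and -1.35 in 1B livers and between 0.23 and 0.81 in HFD+1B livers, 4.29-fold higher (adjusted p = 3.02e-06). Gadd45g, a growth arrest gene, was 3.54-fold higher. Cdkn1a, the cyclin-dependent kinase inhibitor p21, was at -2.77, -2.62, -2.90, and -0.44 in 1B livers and at 0.63, 0.31, 0.88, 0.47, and 0.82 in HFD+1B livers, 6.98-fold higher (adjusted p = 0.000215). Among 1B livers, replicate 4 stood more than 2 log2 units above the others for Cdkn1a. Cell cycle genes showed 4 of 39 higher and 1 lower, with 1 higher without 1B replicate 1 or HFD+1B replicate 4 and 2 higher without 1B replicate 2, 3, or 4.

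The largest rise among genes of glucose metabolism was that of Igfbp1, a secreted insulin-like growth factor binding protein that insulin suppresses. It was at -3.34, -2.81, and -1.56 in the 3 1B livers with a value and at 2.09, 0.44, 1.76, 1.79, and 0.88 in HFD+1B livers, 15.6-fold higher (3.96 ± 0.39, adjusted p = 3.92e-05, limma). In maltose livers with a value it lay between -3.71 and -3.10 on chow and at -3.42 and -3.51 on HFD, so the HFD+1B mice were the only group with values above 0. Tat, the tyrosine aminotransferase induced by glucocorticoids and fasting, was at -1.86, -1.40, -1.80, and -0.25 in 1B livers and at 1.35, -0.36, 1.20, 0.96, and 0.58 in HFD+1B livers. It was 4.21-fold higher (adjusted p = 0.000926) and the groups overlapped, since HFD+1B replicate 2 lay below 1B replicate 4. Sds, serine dehydratase, was 3.02-fold higher (adjusted p = 0.0074). Of 30 genes on the list of gluconeogenesis and glucocorticoid targets 8 were higher and 3 lower. On the list of the integrated stress response, 9 of 29 genes were higher and 1 lower. Ddit4, an inhibitor of mTORC1, was between -2.46 and -1.28 in 1B livers and between -0.12 and 0.81 in HFD+1B livers, 5.24-fold higher (adjusted p = 4.83e-05). Gdf15 (4.31-fold), a stress cytokine, Chac1 (3.85-fold), a glutathione-degrading enzyme, and the transcription factor Cebpb (3.18-fold) were higher as well.

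Genes that male mice express above females were the group with the deepest fall. Of 27 tested, 22 were lower and 0 higher (5.15% and 6.28% of all genes), with a median of -1.44. For 21, all HFD+1B values lay below all 1B values (5.79% of all genes). All mice were male, and sex-biased liver genes follow the pulses of growth hormone. Cyp7b1, an oxysterol hydroxylase, was at 0.82, 1.1, 0.75, and 0.75 in 1B livers and at -1.52, -3.37, -1.78, -3.15, and -2.48 in HFD+1B livers, 9.97-fold lower (-3.32 ± 0.32, adjusted p = 5.24e-06, limma). Selenbp2, a selenium-binding protein, was between 0.89 and 1.5 in 1B livers and between -2.32 and -1.45 in HFD+1B livers, 9.49-fold lower (adjusted p = 1.28e-06), and its relative Selenbp1 was 4.88-fold lower. Slco1a1, an organic anion uptake carrier, was between 0.53 and 0.99 in 1B livers and at -0.76, -3.89, -2.12, -2.57, and -2.44 in HFD+1B livers, 8.37-fold lower (adjusted p = 0.000429). C8b, a chain of the complement membrane attack complex, was 7.07-fold lower, and Egfr, the epidermal growth factor receptor, 4.7-fold lower on 6 of 6 probes. Hsd3b5, a steroid reductase, was at 0.22, -0.26, 0.90, and -1.02 in 1B livers and between -4.32 and -3.47 in HFD+1B livers, where 3 of 5 arrays were well above background. Mup1, a major urinary protein, was 7.26-fold lower, with HFD+1B replicate 1 at 0.77 and the other mice between -1.45 and -0.92. Mup genes are near-identical copies, so a probe may read several of them. The female-biased list had 6 of 24 genes higher and 6 lower.

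Many cytochromes P450 and some bile acid enzymes were lower, while conjugation enzymes moved both ways. Of 39 xenobiotic cytochromes P450 and their receptors 22 were lower and 3 higher, with a median of -0.69. Cyp1a2, which oxidizes aromatic amines and caffeine, was at 0.60, 0.94, 1.12, and 1.14 in 1B livers and at -1.5, -2.33, -1.56, -2.63, and -2.41 in HFD+1B livers, 8.19-fold lower (-3.03 ± 0.21, adjusted p = 5.03e-07, limma), and its second probe gave -2.99. Cyp2c54 (7.09-fold) and Cyp2c29 (4.88-fold) were lower too, and because Cyp2c genes are close paralogs their probes may share signal. Of 42 conjugation enzymes 5 were higher and 9 lower, with a list median of -0.016. Of 26 bile acid genes, 8 were lower and 1 higher. Cyp7a1, the rate-limiting enzyme of bile acid synthesis, was between 0.28 and 1.09 in 1B livers and between -2.06 and -1.35 in HFD+1B livers, 4.81-fold lower (adjusted p = 1.22e-05). Genes that oxidize ethanol and acetaldehyde moved both ways, with 3 of 18 higher and 3 lower. Among them Aldh3a2, a fatty aldehyde dehydrogenase, was 2.69-fold higher, Aldh1a1, which oxidizes retinal and acetaldehyde, 0.64 higher on the log2 scale, and Adh7, an alcohol dehydrogenase, 1.68-fold lower. The complement and coagulation list had 16 of 47 genes lower and 4 higher, and the urea cycle and amino acid list 9 of 33 lower and 3 higher. The complement count higher was 2 without 1B replicate 1, 2, or 3 or HFD+1B replicate 2 or 4. The urea cycle count lower rested on single mice: it was 3 without 1B replicate 3 or HFD+1B replicate 4, 4 without HFD+1B replicate 2, where 5 were higher, and 5 without 1B replicate 2 or 4. Of the 13 hepatocyte markers themselves, 3 were lower and 1 higher, with a median of -0.18, and the median per mouse lay between -0.060 and 0.019 in 1B livers and between -0.27 and -0.054 in HFD+1B livers. Only 1 was lower without 1B replicate 1, 2, or 3 or HFD+1B replicate 4, and the part of this shift in the falls of hepatocyte genes was not tested. Eif4ebp3, a repressor of translation initiation, was among the 12 largest falls (5.61-fold, adjusted p = 5.34e-05), whereas Serpina7 (5.54-fold, adjusted p = 2.7e-06), the thyroxine-binding globulin, and Ly6d (5.93-fold, adjusted p = 0.0115), a GPI-anchored surface protein, were among the 12 largest rises.

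Chaperones of the ER were lower together. Of 26 tested, 15 were lower and 0 higher (5.15% and 6.28% of all genes). For 15, all HFD+1B values lay below all 1B values (5.79% of all genes). The list median of these chaperones was -0.60. These genes are known to be induced in the unfolded protein response through the ER stress element in their promoters. The letters of the element were searched on both strands, as CCAAT, then 9 bases of any kind, then CCACG, in the 250 bases before each RefSeq gene start (GRCm38.p6). It was found in 9 of the 22 chaperone genes for which a promoter was listed (40.9%), against 20 of 14653 tested genes (0.136%). The list was made of genes known for this response, so a high share was set in advance and says nothing of the diet. Among the chaperone genes that were lower the element was in 6 of 13, and among those not called in 3 of 9, as a description with no test. Of the 26 genes, 4 have no promoter in the table. A shorter related element, ATTGG, then 1 base of any kind, then CCACG, which shares the letters CCACG with it, was in 1 of the 22 and in 7 of the 14653 (0.0478%). The windows of 4 genes that were lower are shown 5′ to 3′ on the strand of the gene, with the element in capitals, to show where it lies and on which strand. Creld2 lies on the plus strand at chr15:88819396-88819645, Hspa5 on the plus strand at chr2:34771840-34772089, Syvn1 on the plus strand at chr19:6046326-6046575, and Hsp90b1 on the minus strand at chr10:86705445-86705694.
Creld2: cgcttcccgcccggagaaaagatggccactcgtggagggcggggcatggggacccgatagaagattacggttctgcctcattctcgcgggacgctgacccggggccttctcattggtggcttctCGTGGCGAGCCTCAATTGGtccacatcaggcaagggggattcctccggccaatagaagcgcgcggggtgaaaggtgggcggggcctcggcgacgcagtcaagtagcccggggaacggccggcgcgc
Hspa5: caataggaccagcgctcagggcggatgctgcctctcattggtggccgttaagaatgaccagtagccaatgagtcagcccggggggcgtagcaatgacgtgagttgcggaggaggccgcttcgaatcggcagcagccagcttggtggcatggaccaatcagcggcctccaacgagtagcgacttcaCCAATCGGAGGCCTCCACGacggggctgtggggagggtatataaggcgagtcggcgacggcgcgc
Syvn1: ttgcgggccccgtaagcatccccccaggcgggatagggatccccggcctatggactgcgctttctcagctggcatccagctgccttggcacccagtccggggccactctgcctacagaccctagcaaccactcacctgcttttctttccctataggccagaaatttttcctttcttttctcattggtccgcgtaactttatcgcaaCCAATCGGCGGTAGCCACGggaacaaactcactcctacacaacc
Hsp90b1: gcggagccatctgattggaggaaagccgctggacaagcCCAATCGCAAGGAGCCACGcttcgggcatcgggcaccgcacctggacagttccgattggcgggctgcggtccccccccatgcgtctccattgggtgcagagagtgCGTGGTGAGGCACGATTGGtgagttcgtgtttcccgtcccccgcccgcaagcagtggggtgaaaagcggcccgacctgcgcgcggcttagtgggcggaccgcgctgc
The element of Creld2 reads in the reverse orientation, 108 to 126 bases before the start, that of Hspa5 forward at 47 to 65 bases, and that of Syvn1 forward at 26 to 44 bases. Hsp90b1 holds 1 in each orientation between 89 and 212 bases before the start. Matches to these letters are a description of the sequence, and binding was not measured.

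Creld2, a chaperone-like protein of the ER, was at 1.57, 0.83, 0.50, and 0.56 in 1B livers and at -0.91, -1.58, -1.32, -0.68, and -1.48 in HFD+1B livers, 4.17-fold lower (-2.06 ± 0.29, adjusted p = 0.00026, limma). Hspa5, the central ER chaperone BiP, was at 1.19, 0.79, and 0.43 in the 3 1B livers with a value and at -0.31, -1.0, -0.72, and -0.56 in the 4 HFD+1B livers with one, 2.73-fold lower (adjusted p = 0.0049). Manf, a secreted ER stress protein, was 2.79-fold lower (adjusted p = 0.0052). Syvn1, a ubiquitin ligase of ER-associated degradation, was -1.42 (adjusted p = 0.00031), and Hsp90b1, the ER form of Hsp90, was -0.62 (adjusted p = 0.0325), both named for their promoters after their values were seen. The Hsp90b1 call was lost without 1B replicate 1 or 2 or HFD+1B replicate 2 or 3 (adjusted p from 0.0623 to 0.123), though its second probe passed (-0.82, adjusted p = 0.0016). Against the chow mean, the list median stood at 0.54 for 1B livers, -0.059 for HFD livers, and -0.16 for HFD+1B livers, so the 1B mice were the group that stood above the other groups. The list median per mouse lay between 0.27 and 0.76 in 1B livers and between -0.35 and 0.072 in HFD+1B livers, although HFD replicate 3 reached 0.41, against -0.29 to -0.15 in the other HFD mice. Cytosolic heat shock proteins had 8 of 21 lower and 2 higher, with 3 lower without 1B replicate 1, 4 without 1B replicate 2 or 3 or HFD+1B replicate 3, and 5 without HFD+1B replicate 1. The small heat shock protein Hspb1 was 3.13-fold higher.

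**Figure D3:**
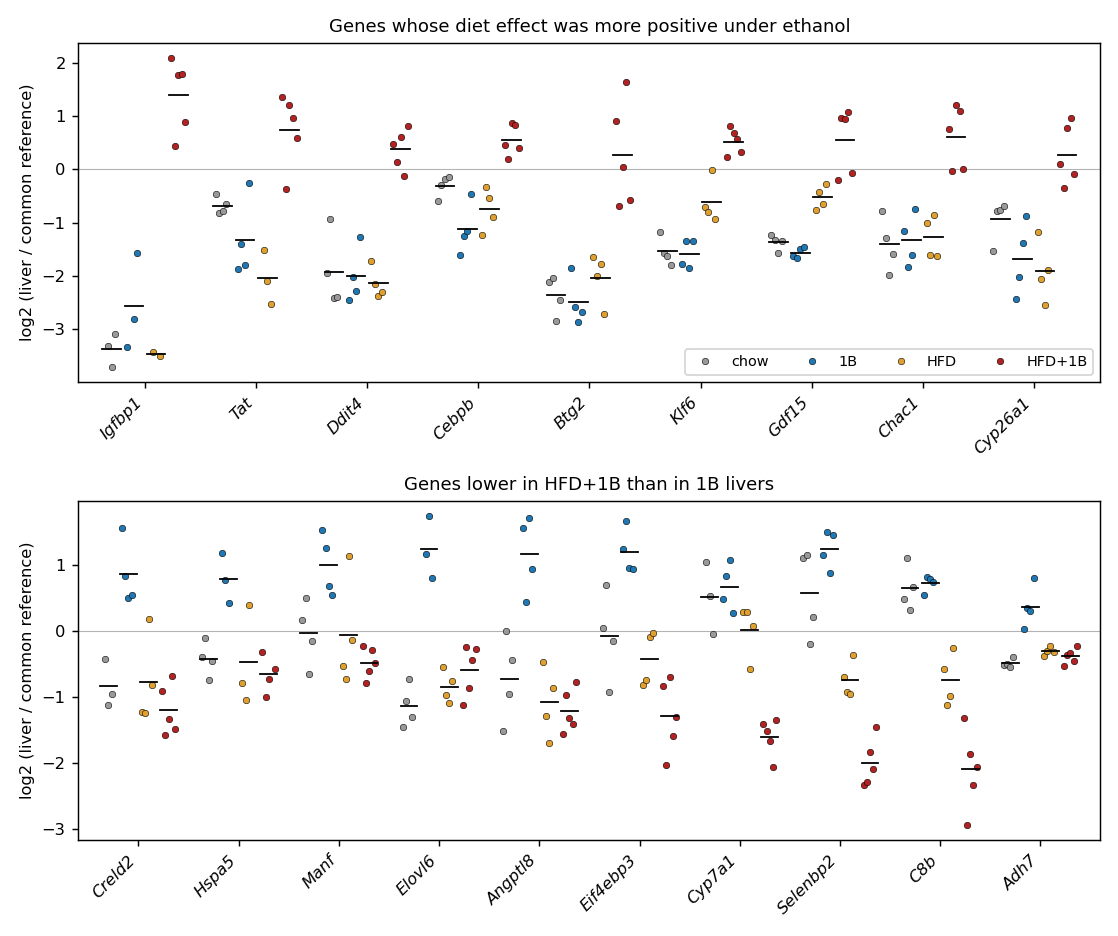
Log2 ratio of liver to common reference (y axis) in all 4 groups (4 chow, 4 1B, 4 HFD, 5 HFD+1B mice; spots left out as outliers are not drawn). Each point is 1 mouse, and each bar is the group mean. By group mean, HFD+1B is the highest group for each gene in the top panel, and 1B for each gene in the bottom panel. For Tat, 1 HFD+1B mouse lies below 1 1B mouse.

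Oxidative phosphorylation and proteasome genes showed few calls, while ribosomal protein genes were lower by small amounts. None of 67 oxidative phosphorylation genes passed in limma in either direction, with a list median of -0.012, and at an unadjusted p under 0.05 1 was higher and 5 lower. Without chow replicate 1 and without HFD+1B replicate 5, 1 and 2 of them passed as lower. Of 36 proteasome genes 1 was higher and 1 lower. Cytosolic ribosomal proteins had 16 of 76 genes lower (9 without 1B replicate 2) and 0 higher, and 70 of 76 differences were negative, with changes below 2-fold for every one and a median of -0.24, and Rpl12 was the largest of these at -0.63 ± 0.11 (adjusted p = 0.0019).

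The diet effect under ethanol was then set beside the diet effect under maltose, which rests on other mice. Over 19351 genes the 2 effects correlated with r = 0.388 (Spearman rho = 0.24), a value across genes, which are not independent, on arrays that shared a reference and slides. Of the 1216 genes higher under ethanol, 315 (25.9%) were also higher under maltose, or 36.2% of the 870 (4.5% of all genes) higher there, and 16 were called lower. Of the 996 genes lower under ethanol, 171 (17.2%) were also lower under maltose, or 13.6% of the 1254 (6.48%) lower there, and 12 were called higher. In a test of the difference itself, 519 genes (2.68%) had a more positive and 333 (1.72%) a more negative diet effect under ethanol. At the level of probes these were 870 (2.51%) and 556 (1.6%), and both counts fell to their lowest, 402 and 263, without chow replicate 4. At least 1 of these counts also moved by more than 1.5 times, to between 269 and 575, without chow replicate 1 or 3, 1B replicate 1 or 2, HFD replicate 3 or 4, or HFD+1B replicate 4. Under maltose alone 1343 probes (3.88%) were higher and 2114 (6.1%) lower, and the lowest counts, 660 and 1175, came without HFD replicate 3, with changes of over 1.5 times also without chow replicate 1 or 4 or HFD replicate 4.

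**Figure D4:**
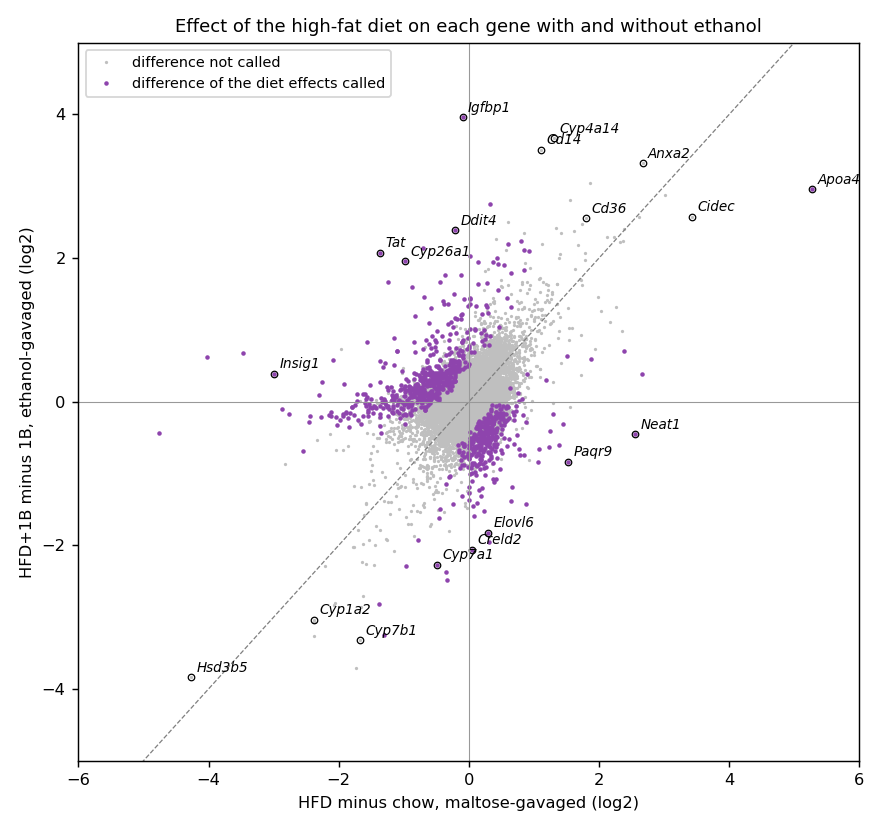
Each point is 1 of 19351 genes, placed by the log2 difference between HFD and chow livers under maltose (x axis) and between HFD+1B and 1B livers under ethanol (y axis), with the line of equality dashed. Purple points have a difference of the 2 diet effects that passed in limma, and some of the genes described are named. Igfbp1 and Ddit4 lie high near the vertical zero line, and Hsd3b5, Cyp1a2, and Anxa2 lie near the line of equality.

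Stress and glucose metabolism lists held several genes whose diet effects differed. The immediate early list had 5 of 30 genes and the p53 list 5 of 24 with a more positive effect under ethanol, and 0 with a more negative one. Of 29 integrated stress response genes these counts were 7 and 1, and of 30 gluconeogenesis genes 6 and 1. Over all genes the shares were 2.68% more positive and 1.72% more negative. The lists share members, so 1 gene can count in more than 1 list. Igfbp1 differed by 4.05 (adjusted p = 0.0057, limma), Ddit4 by 2.60 (adjusted p = 0.0037), Btg2 by 2.43 (adjusted p = 0.0225), Cebpb by 2.11 (adjusted p = 0.0024), Klf6 by 1.17 (adjusted p = 0.0209), and Gdf15 by 1.26 (adjusted p = 0.0352). Tat went both ways, with a rise of 2.07 under ethanol and a log2 difference of -1.36 under maltose (adjusted p = 0.0345). Its maltose values lay between -0.82 and -0.47 in chow livers and between -2.52 and -1.51 in the 3 HFD livers with a value. Cyp26a1, the enzyme that clears retinoic acid, rose by 1.96 under ethanol and stood at -0.98 under maltose (adjusted p = 0.0843), with a difference of 2.93 (adjusted p = 0.0043). Insig1, which holds the sterol sensor in the ER, showed no call under ethanol (0.39, adjusted p = 0.6185) and a log2 difference of -2.99 under maltose (adjusted p = 0.000176). In the other direction, Neat1, a nuclear noncoding RNA, differed by -3.02 (adjusted p = 0.0019), with -0.46 under ethanol and a rise of 2.56 under maltose, and Paqr9, a membrane receptor family member, by -2.37. Apoa4 rose under both, by 2.96 and 5.28, and its difference of -2.32 passed (adjusted p = 0.0398). Of the 26 ER chaperones 3 had a more negative effect under ethanol, Creld2 by -2.11. The HFD livers under maltose were those with low ribosomal RNA signal, and the part of that signal in these differences was not tested.

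The lists of lipid storage, macrophage, and male-biased genes had medians of the same sign under both gavages. The list medians were 0.47 under ethanol and 0.46 under maltose for steatosis, 0.83 and 0.67 for lipid-associated macrophages, and -1.44 and -1.09 for male-biased genes. The diet effects differed for 1 of 27 steatosis genes and 0 of 25 macrophage genes, and for 4 of 27 male-biased genes (1 more positive and 3 more negative under ethanol), against 2.68% and 1.72% of all genes. Selenbp2 (-1.94) and C8b (-1.44) were among the 3 with a more negative effect. Hsd3b5 (-3.83 and -4.26), Cyp1a2 (-3.03 and -2.39), and Anxa2 (3.32 and 2.67) had no call for the difference, and no test of equality was made. Collagens had 1 difference among 32 genes and the fibrosis list 6 among 85. Acta2 was 0.49 under ethanol and -0.27 under maltose, with a difference of 0.76 (adjusted p = 0.0684).

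**Figure D5:**
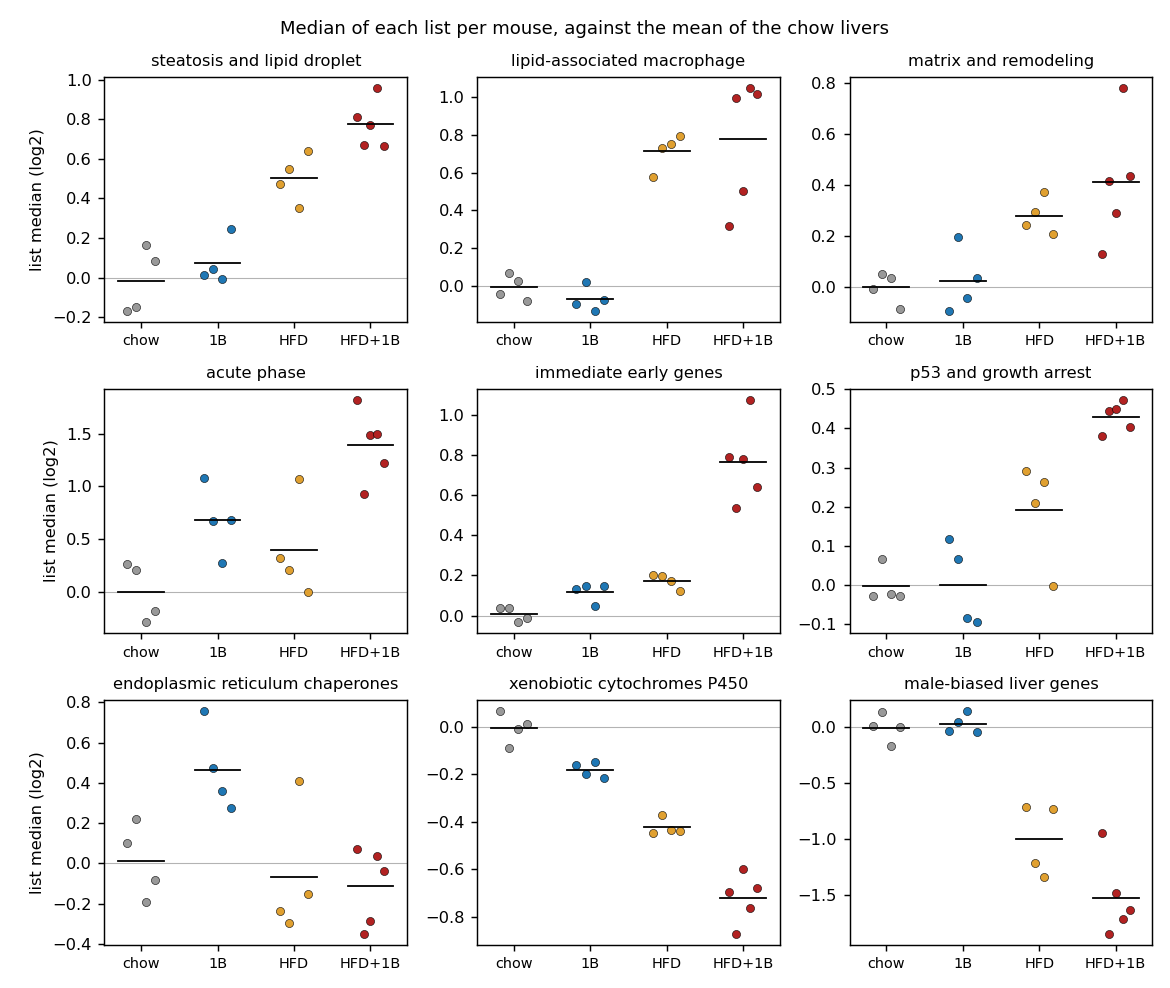
Median log2 value of each of 9 lists per mouse (y axis), with each gene set against its mean in chow livers, in chow, 1B, HFD, and HFD+1B mice. Each point is 1 mouse, and each bar is the mean of the mice. Immediate early genes are between 0.53 and 1.07 in HFD+1B mice and at most 0.20 in every other mouse, ER chaperones are highest as a group in 1B mice, and male-biased genes are low in both HFD groups.

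The 5 HFD+1B mice were not alike. Over the 210 genes at least 2-fold higher with a value in all 5, the median rise was 1.13 in replicate 1, 1.30 in replicate 2, 1.36 in replicate 3, 1.83 in replicate 4, and 1.42 in replicate 5. Replicate 1 had the smallest rise for 45.7% of these genes and replicate 4 the largest for 46.2%. Over 122 genes at least 2-fold lower, replicate 1 had the smallest fall for 45.9% and replicate 2 the largest for 49.2%. The lists split these mice in different ways: replicate 1 was lowest for lipid-associated macrophage genes (0.24, others 0.60 to 1.11) and least changed for male-biased genes (-0.86, others -2.02 to -1.43). The same replicate was the highest of all for acute phase genes (1.11, others 0.15 to 0.89). Replicates 2 and 5, the lowest 2 for acute phase genes (0.15 and 0.32), were among the highest 3 for lipid-associated macrophage genes.

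For a few genes only a bound can be given, since no array of a group was well above background. Slc22a29, a solute carrier, was at least 1.8-fold higher in HFD+1B than in 1B livers (adjusted p = 0.000301, limma), and Ntrk2, a neurotrophin receptor, at least 1.77-fold (adjusted p = 0.0023). Sele, the endothelial selectin to which neutrophils attach, was at least 1.23-fold higher, but its groups overlapped. The call of its log2 ratio was lost without 1B replicate 1 or 3 (adjusted p = 0.0999 and 0.0867, limma). It was also lost in the fit of the 9 ethanol arrays alone (adjusted p = 0.105).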

How the data were processed

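Members and gene lists were chosen with earlier results of these data known. The authors hybridized each liver (Cy5) with a commercial assorted mouse RNA as the reference (Cy3; the labels also call this channel liver), without dye swap, and deposited scanner intensities from Agilent Feature Extraction 11.5.1.1 and a table of log2 ratios, which equals the log2 ratio of the processed signals. Samples were grouped by title. Here median intensities were corrected with normexp (offset 50) and normalized by loess, outlier spots were left out, and spots of 1 probe were averaged. Probes well above background on at least 4 arrays were tested in limma 3.58.1 (R 4.3.3) in 1 fit of 17 arrays with 4 group means and 13 residual degrees of freedom, with Benjamini-Hochberg adjustment over all 34650 probes. P-values measure the spread between these mice. A gene was read from its brightest probe, named through RefSeq accessions for 28412 probes and by symbol for 6970, while 5792 had no name. Promoters are from RefSeq. Lists are 35 processes and 11 cell types. Genes were named as the 12 largest rises and falls with values and signal on all 9 ethanol arrays, the 3 largest changes of each list described, the genes the study followed, and the 6 largest differences of diet effects in each direction, of which some are not reported here. A group not well above background on any array gives a bound, from the higher of each array's lowest detected signal and the probe's own. Alternatives were the 9 ethanol arrays alone, replicate and slide blocks, background correction, centring, the deposited table, Cy5 alone, filters, flags, weights, thresholds, probe averaging, the methods' analysis of variance, and leaving out each mouse. The fit was tested on simulated data.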

Additional observations from a re-analysis of the deposited data

Results flagged for a closer look

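Of 191 sets of 1B or HFD+1B values, 9 (4.71%) held a mouse that stood apart from the rest of its group by Dixon's criterion, and chance alone gives about 1 in 20. Replicate 4 was the mouse apart among 1B livers for Cdkn1a (-0.437, others -2.897 to -2.619), for Egfr (0.665, others 1.082 to 1.154), and for the median of the steatosis list (0.19, others -0.067 to -0.029). Icam1 stood apart in 1B replicate 2, at -0.144. Among HFD+1B livers, replicate 1 stood apart for Mup1 (0.767) and Paqr9 (-1.177), replicate 2 for Sds (-0.17), and replicate 3 for Nid1 (0.196) and Serpina7 (0.055).

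The diet effect differed between ethanol and maltose by the interaction test in limma for 25 of the genes described. It was more positive under ethanol for Igfbp1 (4.055), Tat (3.437), Insig1 (3.379), Cyp26a1 (2.931), Ddit4 (2.599), Sds (2.459), Btg2 (2.432), Cebpb (2.112), Chac1 (1.808), Gdf15 (1.261), Klf6 (1.17), and Il17f (0.972). It was more negative for Neat1 (-3.015), Paqr9 (-2.365), Apoa4 (-2.318), Eif4ebp3 (-2.148), Elovl6 (-2.118), Creld2 (-2.113), Angptl8 (-2.025), Selenbp2 (-1.942), Cyp7a1 (-1.775), C8b (-1.439), Selenbp1 (-1.316), Syvn1 (-1.183), and Adh7 (-0.936). All are differences of log2 differences.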

How the results depend on the processing

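No named gene that passed the test changed sign in any alternative run, whereas Mpo, Il3, Ncf1, Cxcr2, and Hgf, which did not pass, changed sign in 14 values. Of 2709 gene values, 2631 were counted as unchanged, and 50 lost and 20 gained the call. Means over all probes of a gene have no test and so no side of the threshold. Of these means 8 moved, and the rest are among the 2631. Acta2 and Tgfb1 lost the call most often. Paqr9 under ethanol (adjusted p = 0.0524, limma) passed in 11 alternatives, and Csf2 and Egf passed in the deposited table and in the methods' analysis of variance. The block of replicate number gave 2065 probes higher and 2066 lower under ethanol, 2202 higher under maltose, and differences of 1650 and 1260. The numbers share no known litter or day, same-numbered mice correlated at 0.364, 0.067, -0.128, and 0.134 in their deviations from the group means, and not every mouse correlated best with its own number. Slide as a block gave 905 negative differences, and the same block in the 9 ethanol arrays alone, chosen after seeing the data, 1057 probes lower. Median centring gave 678 lower under ethanol, 451 higher under maltose, differences of 1652 and 162, and list medians of 0.588 (steatosis), -0.563 (cytochromes P450), and 0.473 (p53). An offset of 16 in the background correction gave 0.785 for immediate early genes, and the deposited log2 ratios gave 0.888 for these and 0.338 for the fibrosis list. Cy5 alone gave 495 and 359 under ethanol, 301 and 1130 under maltose, differences of 279 and 44, and 0.307 for the p53 list. Array weights gave 2608 higher under maltose, and the mean of all probes 0.294 for the p53 list. At 2-fold with an unadjusted p, the counts were 336 and 190 under ethanol, 146 and 409 under maltose, and 524 and 180 for the difference, and with an adjusted p 324 and 187, 132 and 392, and 373 and 127. Leaving out single mice gave 1191 to 2103 probes higher and 1102 to 1789 lower under ethanol, 660 to 1588 and 1175 to 2220 under maltose, and 402 to 1295 and 263 to 815 for the difference. List counts of genes passing moved by over 1.5 times in 142 of the values for higher and 155 of those for lower over all alternatives. List medians ran from 0.416 to 0.601 for steatosis, -0.011 to 0.187 for neutrophils, and 0.342 to 0.427 for p53. The cause of these changes was not tested. The mice are few, arrays carry no dye swap, and dim probes are bounded by background.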
